A study of Homo sapiens with 3 samples.

Results

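The genes described here are those measured in HepG2 cells that had been given either of a pair of P2X7 receptor antagonists, ranked by how far both antagonist libraries together stood from the PBS library. A gene was included when its mean over the 3 libraries was at least 10 CPM (counts per 1000000 counts of the scaled library), which held for 8196 of the 62680 rows of the count table. For each gene the pooled ratio is the mean of the scaled A740003 and A438079 counts divided by the scaled PBS count. The spread is the ratio of the scaled A740003 count to the scaled A438079 count. HepG2 is an established human liver cancer line. The treatments were 20 µM A740003 for 48 h, 20 µM A438079 for 48 h and PBS for 48 h, with 1 mRNA library of total RNA from each. The sources used here name no solvent for the antagonists, and the PBS library is the only control.

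The antagonists are different compounds and are not replicates of each other. The spread therefore mixes any difference between the compounds with the error of single libraries. Because there was 1 library per treatment, no test between treatments was possible, and the 95% intervals (exact binomial, Clopper-Pearson) cover counting error only. One PBS library stands under every ratio, so a deviation of that library and a change shared by both antagonist libraries cannot be told apart.

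P2X7 is a cation channel of the cell membrane that opens when extracellular ATP binds it. Its opening lets calcium and sodium in and potassium out, and in immune cells the loss of potassium is a known trigger of the NLRP3 inflammasome and of interleukin-1β release. ATP outside the cell is degraded by ectonucleotidases, and its product adenosine acts on receptors of another family. A740003 and A438079 are both used as competitive P2X7 blockers.

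Each library held 19375462 to 19735540 counts, and the included genes took 97.9 to 98.3% of them, with a median of 868 counts per gene. At this depth 10 CPM is 194 to 199 counts. The liver character of the line was visible in all 3 libraries, where 10 hepatocyte markers such as ALB summed to 24113, 25428 and 23344 CPM with A740003, A438079 and PBS. The stromal markers COL1A1, COL1A2, COL3A1, DCN and LUM, the endothelial markers VWF, CDH5 and KDR and the blood markers PTPRC, HBB and CD3E had 0 counts in every library. Other genes of these lists were detected: stromal ACTA2 had 381, 418 and 399 counts and PDGFRB 2, 10 and 7, and of the blood list CD68 had 632, 758 and 652 and CD14 3, 8 and 8. The cholangiocyte list, which includes EPCAM, KRT19 and SOX9, summed to 340, 395 and 430 CPM, with KRT7 and CFTR at 0. Hemoglobin HBA1 had 12 counts with PBS and 0 with either antagonist. The share of counts from mitochondrial genes was 8.38%, 9.39% and 10.3% with A740003, A438079 and PBS.

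The drug target itself was at the edge of detection. P2RX7, which encodes the P2X7 receptor, had 2 counts in each library. P2RX4, a receptor of the same channel family, had 219, 247 and 249 counts with A740003, A438079 and PBS, a pooled ratio of 0.926 (0.791 to 1.08). The antagonist and PBS levels of P2RX4 thus overlapped within counting error.

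Most genes stood close to PBS in both antagonist libraries. The median pooled log2 ratio was 0.03, and the median size of the pooled change was 1.11-fold, against 1.07-fold between the antagonists. A gene was counted as higher or lower when its pooled ratio was at least 1.5-fold from 1 and the interval excluded 1. By that rule 321 genes (3.92% of 8196) were lower and 31 (0.378%) were higher than PBS. At 2-fold, 83 genes (1.01%) were lower and 8 (0.0976%) were higher. Over PBS alone, A740003 had 403 lower (4.92%) and 84 higher genes (1.02%), and A438079 had 290 lower (3.54%) and 21 higher ones (0.256%).

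The spread between the antagonists was called narrow when the smaller scaled count was at least 0.8 of the larger, wide when they were at least 1.5-fold apart, and intermediate otherwise. It was narrow in 7619 genes (93.0%), intermediate in 497 (6.06%) and wide in 80 (0.976%), of which 30 (0.366%) were higher with A740003 and 50 (0.61%) with A438079. Among the 321 lower genes the spread was narrow in 192 (2.34% of all genes), intermediate in 97 (1.18%) and wide in 32 (0.39%). Among the 31 higher genes it was narrow in 15 (0.183%), intermediate in 7 (0.0854%) and wide in 9 (0.11%). Narrow spread was thus found in 59.8% of the lower, 48.4% of the higher and 94.5% of the remaining genes. Low counts go with larger spread: in genes of 10 to 20 CPM it was narrow in 82.7%, and the same interval of expression held 185 of the 321 lower genes.

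**Figure D1:**
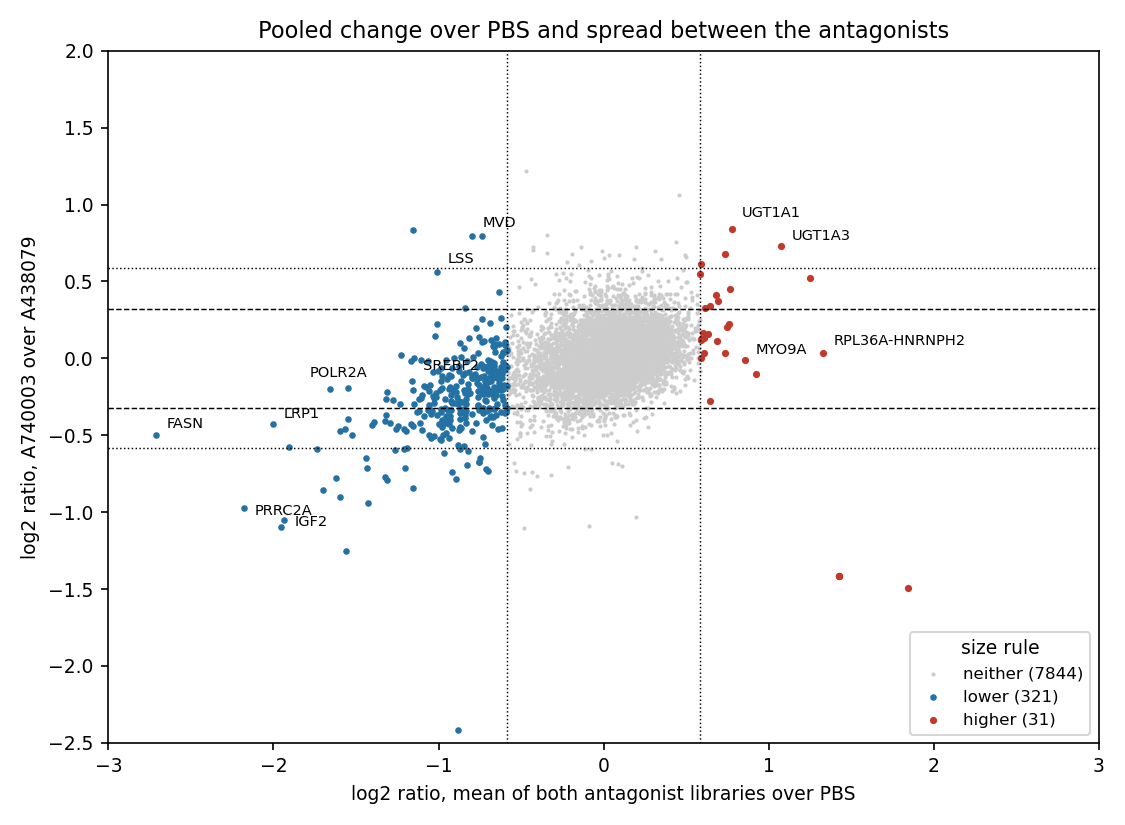
Each point is a gene: the x axis is the log2 ratio of the mean of both antagonist libraries over PBS, the y axis the log2 ratio of A740003 over A438079. Dotted lines mark 1.5-fold on either axis, and dashed lines the limit of narrow spread. The 321 lower genes outnumber the 31 higher ones and extend downward to the left, where A740003 is below A438079. SULT1A4 lies outside the axes.

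The lowest ratio with narrow spread belonged to POLR2A, which encodes the largest subunit of RNA polymerase II (chromosome 17, 7484366 to 7514616, GENCODE 29 on GRCh38). It had 133 counts with A740003, 149 with A438079 and 441 with PBS. Both antagonist libraries were far below PBS and close to each other. The pooled ratio was 0.316 (0.271 to 0.368) and the spread 0.869 (0.683 to 1.11), so a wider spread was within its counting error. STK11, the kinase LKB1 that activates AMPK, followed with 115, 128 and 352 counts and a pooled ratio of 0.341 (0.289 to 0.403).

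Genes of several unrelated roles followed in the same way. NR5A1, an orphan nuclear receptor known as steroidogenic factor 1, had 166, 159 and 377 counts and a pooled ratio of 0.426 (0.366 to 0.496). FGFR4, the hepatocyte receptor for the bile acid hormone FGF19, had 435, 422 and 939 counts and a ratio of 0.451 (0.411 to 0.495). TRIB3, a pseudokinase induced by the stress factor ATF4, had 410, 403 and 867 counts and a ratio of 0.463 (0.421 to 0.511). In NR5A1, FGFR4 and TRIB3 the antagonist libraries differed from each other by less than 2% while both stood below PBS.

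The Ras GTPase-activating protein DAB2IP had 192, 225 and 516 counts with A740003, A438079 and PBS (ratio 0.400). MYBBP1A, a nucleolar protein, had 245, 241 and 540 counts (0.445), and the motor protein MYO1C had 391, 450 and 893 (0.466). By FPKM the spread was no longer narrow in MYBBP1A (5.77 with A740003 and 4.13 with A438079) or MYO1C (4.64 and 6.24). It stayed narrow in DAB2IP (2.61 and 2.15). The other genes among the 12 lowest with narrow spread and whole-number counts were MTSS2, TBC1D16, STK35 and RNF187, with ratios of 0.424 to 0.464. TBC1D16 depended on the measure: on the authors' FPKM values, which scale for transcript length, its pooled log2 ratio was -0.52 in place of -1.16.

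**Figure D2:**
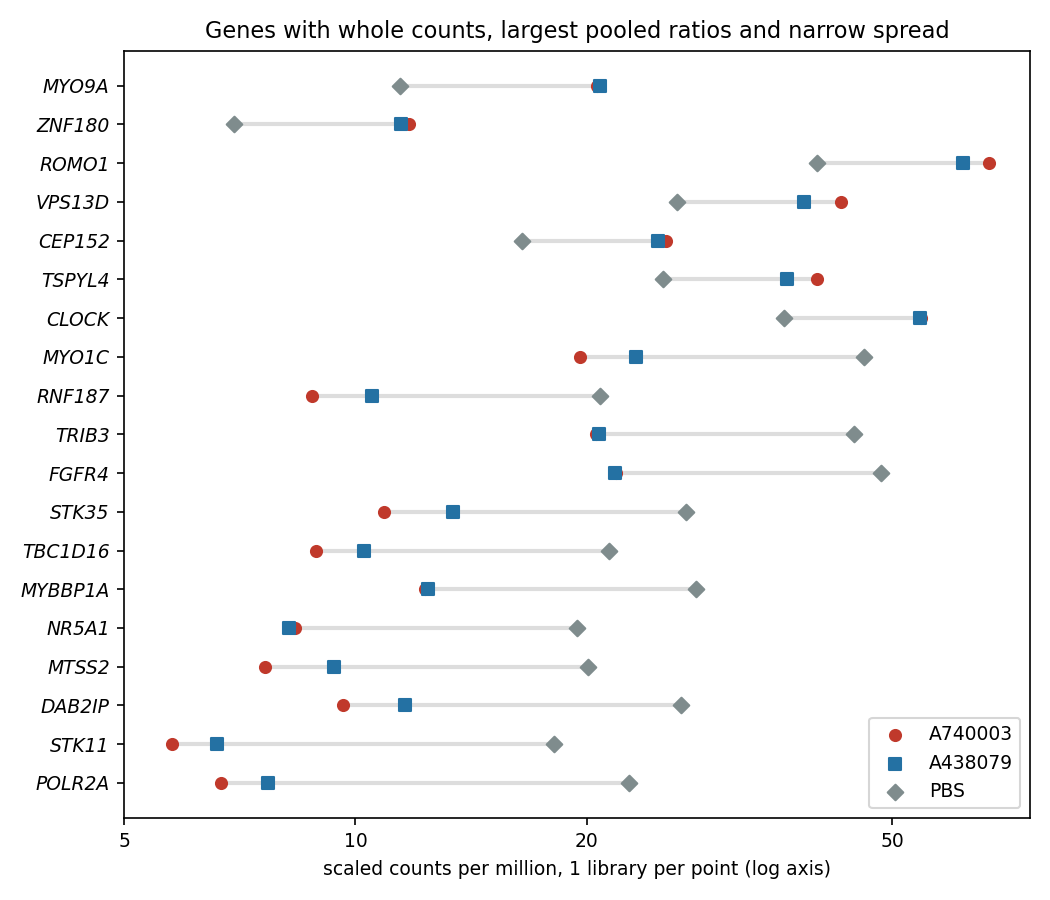
Scaled CPM (log axis) in each of the 3 libraries, 1 point per library, for 7 higher and 12 lower genes with narrow spread and whole-number counts. Rows run from POLR2A at the bottom to MYO9A at the top, and the rule that chose them sets the antagonist points near each other and apart from PBS.

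Whole-number counts matter because the deposited counts are estimates that divide shared reads among genes or transcripts, and 50.7% of the included genes had whole numbers in all 3 libraries. Among narrow genes with fractional counts, the lowest were CCDC85C (0.402), the scaffold protein DLG5 (0.413), SREBF2 (0.447) and ARHGEF40 (0.460). SREBF2 encodes SREBP2, the transcription factor that turns on cholesterol synthesis when sterols are low. It had 405, 436 and 930 counts, an interval of 0.407 to 0.491 and a spread of 0.904 (0.788 to 1.04). Its FPKM values were 4.12, 6.59 and 17.2, so by FPKM both antagonists were below PBS but no longer narrow in spread. The same held for CCDC85C (1.67, 2.40 and 6.33) and ARHGEF40 (5.27, 4.16 and 7.97), while DLG5 (1.57, 1.93 and 3.82) stayed narrow.

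SREBF2 is itself a known SREBP target, and the sequence before its start is shown because it holds the searched core of a sterol regulatory element. The 250 bases upstream of the start are given from RefSeq, GRCh38.p14, chr22:41832855-41833104, plus strand, 5′ to 3′, with the core in capitals.
SREBF2: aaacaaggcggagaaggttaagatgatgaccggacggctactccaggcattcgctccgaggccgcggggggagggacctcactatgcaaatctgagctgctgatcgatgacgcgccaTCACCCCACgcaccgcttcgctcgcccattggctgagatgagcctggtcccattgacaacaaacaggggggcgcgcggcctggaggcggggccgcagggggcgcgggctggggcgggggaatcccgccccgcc
The motif searched was TCACNCCAC on both strands, in windows of 250 bases before to 50 after each start. Among the narrow lower genes with a promoter in the table, the only other gene with it was NR5A1, shown here for comparison with 10 bases on each side, chr9:124507355-124507383, minus strand, where the core reads on the opposite strand and lies after the start.
NR5A1: gccgcccgccGTGGTGTGAgggggtttct
These 2 of 153 promoters (1.31%) compare with 73 of 6705 for all included genes (1.09%) and 1.15% of all promoters in the table. Over all lower genes, of any spread, the core was in 5 of 251 promoters (1.99%). The GC box GGGCGG was in 79.7% of narrow lower promoters and 71.2% of all included ones, the E-box CACGTG in 13.1% and 10.9%, and CCAAT in 34.6% and 38.1%. Narrow lower promoters also had a higher median GC content, 68.7% against 65.0%.

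Higher genes with narrow spread were few, and 8 of them had whole-number counts. MYO9A, an unconventional myosin, had 411, 404 and 222 counts with A740003, A438079 and PBS, a pooled ratio of 1.81 (1.56 to 2.11) and a spread of 0.990. ROMO1, a small protein of the mitochondrial inner membrane, had 1331, 1199 and 776 counts and a ratio of 1.61 (1.49 to 1.75). CLOCK, a core transcription factor of the circadian clock, had 1087, 1055 and 702 counts and a ratio of 1.51 (1.38 to 1.65).

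Further genes of this set were the zinc finger gene ZNF180 (ratio 1.67), VPS13D (1.55), which encodes a lipid transfer protein, the centriole gene CEP152 (1.52) and TSPYL4 (1.52). On the FPKM values several of them were nearer to PBS. By FPKM the pooled log2 ratio was 0.27 for MYO9A in place of 0.86, 0.13 for VPS13D in place of 0.63 and 0.50 for ROMO1 in place of 0.69, all short of 1.5-fold. MYO9A had 3.38, 2.31 and 2.35 FPKM, so there A438079 was at the level of PBS. CLOCK stayed past 1.5-fold, with 7.65, 6.03 and 4.03 FPKM.

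Among higher genes with fractional counts and narrow spread, the first was a composite locus. The readthrough transcript RPL36A-HNRNPH2 had 420, 400 and 161 counts and a ratio of 2.52 (2.12 to 2.999). Summed with RPL36A and HNRNPH2, from which its reads can hardly be parted, the ratio was 1.03 (1.003 to 1.07). NBPF12 (1.69) and RGPD5 (1.68), members of recently duplicated gene families, and ERO1B (1.56), an oxidase of the endoplasmic reticulum, were the other 3 highest named genes of this kind.

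The lowest pooled ratio of all 8196 genes was that of FASN, fatty acid synthase (chromosome 17, 82078333 to 82098332). It had 120 counts with A740003, 165 with A438079 and 928 with PBS. The pooled ratio was 0.152 (0.132 to 0.174) and the spread 0.708 (0.555 to 0.901), between narrow and wide. The FPKM values of FASN were 1.53, 1.37 and 7.42, a pooled log2 ratio of -2.28 in place of -2.71. By FPKM its spread was narrow, and A740003 was above A438079. LRP1, a large endocytic receptor of hepatocytes, had 113, 148 and 520 counts and a ratio of 0.249 (0.213 to 0.288). The FPKM values of LRP1 were 1.66, 0.92 and 2.68, a pooled log2 ratio of -1.0 in place of -2.0, with the order of the antagonists turned around.

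Wide spread at the lower end mostly meant that A740003 was further below PBS. Of the 32 wide lower genes, 29 were lower with A740003 than with A438079, and 3 were lower with A438079. Part of this went with GC content and length. With those trends removed, 19 of the 31 wide lower genes with a known transcript stayed wide and lower. TCF3, ZBED1, COL9A3 and IGFBP4 also stayed wide and dropped out only because their pooled ratio fell short of 1.5-fold. In IGFBP4 the log2 ratio of A740003 over A438079 even went from -0.72 to -0.74. With the trends removed, that ratio went from -0.59 to -0.48 in ANKRD52, no longer wide, and from -0.98 to -0.82 in PRRC2A, still wide. PRRC2A, which binds RNA methylated on adenosine, had 75, 144 and 494 counts and a pooled ratio of 0.220 (0.186 to 0.257), with a spread of 0.507 (0.378 to 0.675). By FPKM its antagonist values were 1.22 and 1.19 against 4.21 with PBS, so by FPKM its spread was not wide.

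The membrane metalloprotease MMP15 had 68, 142 and 406 counts (ratio 0.257), the phosphatase subunit ANKRD52 96, 141 and 393 (0.299), the receptor phosphatase PTPRU 126, 222 and 563 (0.307) and the transcription factor SOX12 91, 152 and 372 (0.324). These are the 5 lowest genes with wide spread and whole counts, PRRC2A included. By FPKM the spread was not wide in PTPRU (2.54 with A740003 and 2.88 with A438079) or ANKRD52 (0.86 and 1.09) either. It stayed wide in MMP15 (0.91 and 1.90) and SOX12 (1.04 and 1.75). IGF2, the fetal insulin-like growth factor, had 987, 1990 and 5651 counts and a ratio of 0.262 (0.249 to 0.272). All 3 libraries were apart in IGF2, with a spread of 0.483 (0.447 to 0.521), and FPKM gave 11.4, 23.5 and 66.5.

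MVD and COQ8A were among the 3 wide lower genes that were lower with A438079. MVD, a decarboxylase of cholesterol synthesis, had 411, 230 and 549 counts, a pooled ratio of 0.575 (0.514 to 0.648) and a spread of 1.74 (1.48 to 2.05). COQ8A, a kinase-like protein of coenzyme Q synthesis chosen after its values were seen, had 706, 396 and 904 counts and a pooled ratio of 0.600. In both genes A740003 stood nearer to PBS.

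None of the 9 higher genes with wide spread had both a symbol and whole counts. The glucuronidation genes UGT1A3 and UGT1A1, which share their last exons, had 662, 388 and 245 counts (ratio 2.11) and 1459, 794 and 648 counts (ratio 1.71). Summed over 13 rows of the UGT1A locus, whose reads cannot be assigned with certainty, the pooled ratio was 1.58 (1.49 to 1.69), made of 1.96 for A740003 and 1.21 for A438079. SULT1A4, a sulfotransferase with a near-identical copy, SULT1A3, topped the ranking with 30, 920 and 23 counts. The sum of SULT1A3 and SULT1A4 was 3688, 3253 and 3299 counts, a ratio of 1.04 (0.997 to 1.08), so the sum did not share the position of SULT1A4 in the ranking.

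Pooling can also hide a gene whose antagonist libraries moved apart. Among the genes whose pooled level was 0.8 of PBS or nearer to it on either side, 22 (0.268% of all) had wide spread, among them 6 with a symbol and whole counts, which were picked out after their values were seen. HMOX1, heme oxygenase 1, had 1175, 736 and 991 counts, so that A740003 was above PBS (1.16) and A438079 below it (0.744), and the pooled ratio was 0.95 (0.882 to 1.03). FGB, the fibrinogen beta chain, had 2556, 3744 and 3372 counts, with single ratios of 0.739 and 1.11. ADH4, an alcohol dehydrogenase, was lower with A740003 (0.596) and at the level of PBS with A438079 (1.01). PFKFB2, SDC4 and CCDC71 were higher with A740003 than with A438079.

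**Figure D3:**
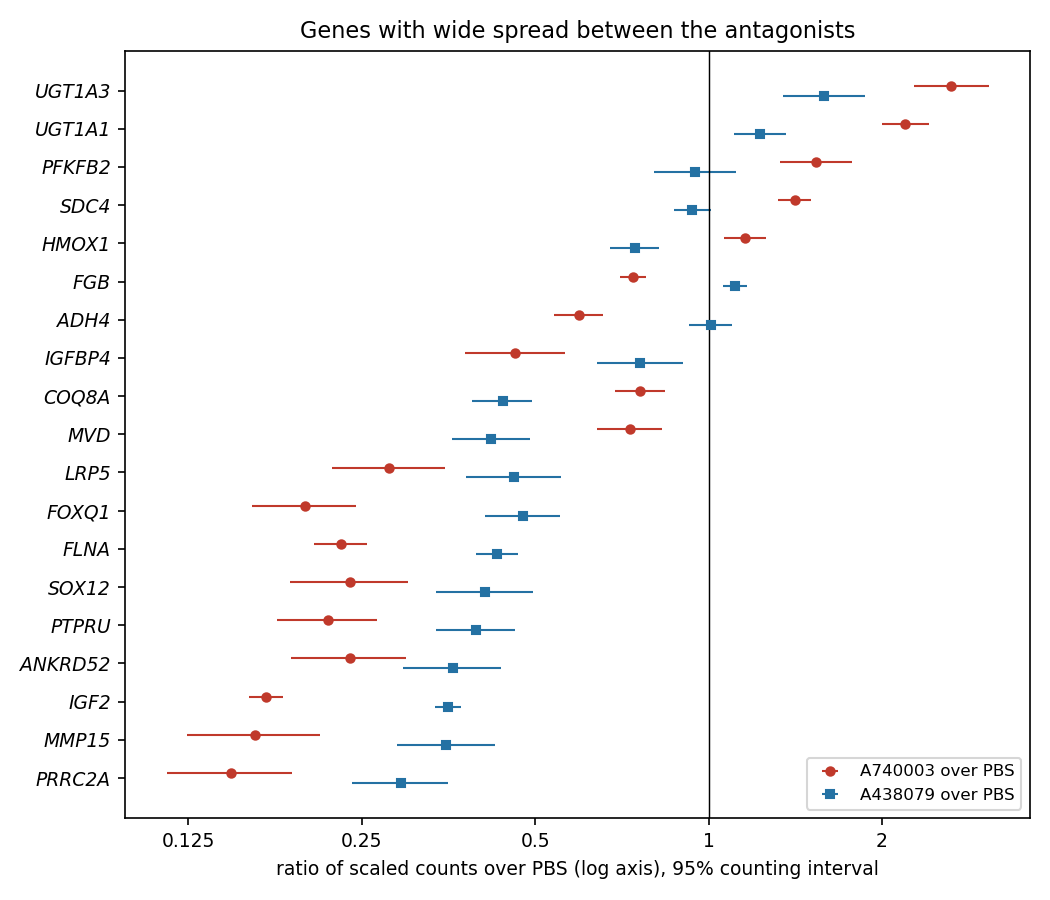
Ratio over PBS (log axis) with its 95% counting interval for each antagonist, in genes with wide spread: UGT1A genes at the top, genes near PBS after pooling in the middle and lower genes at the bottom. From LRP5 to PRRC2A the A740003 point lies left of A438079, whereas MVD and COQ8A show the opposite order; FLNA, FOXQ1 and COQ8A were picked after their values were seen.

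Gene lists of known pathways were read against the background of 3.92% lower and 0.378% higher genes and a median pooled log2 ratio of 0.03. Of all 8196 genes, 4579 were above PBS and 3617 below it by any amount. Lipid synthesis was mixed. Of 31 fatty acid genes 23 were measured and 3 were lower: FASN, the desaturase FADS2 (504, 448 and 829 counts, ratio 0.567) and the lipase PNPLA3 (235, 217 and 354, ratio 0.631, though only -0.30 on the log2 scale by FPKM against -0.66 by counts). The median of the fatty acid list was 0.03, equal to that of all genes, and FADS1, another desaturase of the FADS locus, had a ratio of 0.725.

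Cholesterol synthesis had the lowest list median, -0.24, with 21 of 24 measured genes below PBS. It was not evenly shared: the median was -0.04 with A740003 and -0.48 with A438079, and only 8 of the 24 had narrow spread. SREBF2, MVD and LSS, the lanosterol synthase, were the 3 lower genes, and LSS had 551, 363 and 908 counts and a pooled ratio of 0.496 (0.453 to 0.546). Among these 3 SREBF2 alone had about equal values with both antagonists. ACAT2, an acetyl-CoA thiolase, had a pooled ratio of 0.739.

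Chromatin regulators counted 8 lower genes of 31 measured (25.8%), 7 of them with narrow spread. EHMT2, a histone H3 lysine 9 methyltransferase, had 290, 345 and 641 counts (ratio 0.490, 0.438 to 0.547). The acetyltransferase EP300 had 179, 200 and 332 (0.565, 0.486 to 0.656). By FPKM, with 2.22, 1.54 and 4.31, the spread of EP300 was not narrow, while that of EHMT2 was (5.44, 5.70 and 10.12). Also lower were EHMT1 (0.626), the demethylase KDM5C (0.621) and the deacetylases HDAC5 (0.622) and HDAC6 (0.641). The 8 lower genes of the list include PRRC2A, described above as a protein that binds methylated RNA. Over the whole list 16 genes were below PBS and 15 above, and the median was -0.01. The list was composed with earlier results of these data known, so its count supports nothing by itself.

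Among basement membrane genes and large receptors 7 of 22 measured were lower (31.8%), 2 of them with narrow spread. Receptors made up most of these: LRP1, LRP5 (103, 165 and 360 counts, ratio 0.369), a Wnt co-receptor, PLXNB2 (410, 553 and 1094, ratio 0.436), a semaphorin receptor, IGF1R (178, 234 and 404, ratio 0.505), ERBB2 and PLXNB1. LAMB2, a laminin chain, was the remaining gene. In LRP5, PLXNB2 and IGF1R the A740003 count was below the A438079 count, and both were below PBS.

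Of 17 measured genes of the insulin and IGF axis 4 were lower: IGF2, IGF1R, the binding protein IGFBP4 (149, 239 and 315 counts, ratio 0.611) and the kinase AKT2 (465, 468 and 749, ratio 0.616). Only AKT2 had narrow spread. Wnt and beta-catenin targets had 3 lower genes of 15, namely ZNRF3 (212, 224 and 426 counts, ratio 0.506), a ligase that removes Wnt receptors, and the transcription factors SP5 (0.521) and TBX3 (0.546). ZNRF3 was the narrow one of these 3, and TCF7 had a pooled ratio of 0.754 with a spread of 0.589.

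Hepatocyte transcription factors had 2 lower genes of 18, both with narrow spread: the pioneer factor FOXA1 (319, 377 and 654 counts, ratio 0.527, 0.472 to 0.586) and CEBPA (555, 573 and 895, ratio 0.623, 0.570 to 0.681). NR0B2, the bile acid responsive repressor SHP, was higher with A740003 (856 counts) than with A438079 (524) or PBS (482). None of 27 measured plasma protein genes was past 1.5-fold. APOB, the protein of very low density lipoprotein, had the largest ratio of them, 1.355 (1.346 to 1.364), with 169932, 158105 and 119636 counts, and APOH was at 0.800.

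In drug metabolism and stress responses single genes stood out rather than whole lists. ABCC3, an exporter of conjugates, had a pooled ratio of 0.666, but by FPKM its log2 ratio was -0.24 against -0.59 by counts. AKR1C1, an NRF2 target, had 27098, 31007 and 46622 counts and a ratio of 0.617 (0.608 to 0.624), the only one of 25 NRF2 targets past 1.5-fold. Near copies of AKR1C1 share reads with it. SLC7A5, an amino acid transporter controlled by ATF4, had 748, 922 and 1795 counts (ratio 0.461) and was with TRIB3 the lower pair among 22 ATF4 genes, whose median was 0.03.

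None of 18 endoplasmic reticulum chaperones and none of 9 metallothionein and zinc genes were past 1.5-fold, with list medians of 0.10 and 0.16. Cell cycle lists stayed close to PBS as well. PLK1, a mitotic kinase, was lower (1401, 1565 and 2236 counts, ratio 0.656) and so was the G1/S factor E2F1 (426, 347 and 636, ratio 0.600), while TOP2A and KIF11 had ratios of 1.253 and 1.249. PFKL, the liver phosphofructokinase, was the 1 lower gene of 21 glycolytic enzymes, at 0.644.

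Genes of protein synthesis and degradation stayed close to PBS. Of 79 cytosolic ribosomal protein genes 78 had narrow spread, and RPS28 alone was past 1.5-fold, with 2539, 1913 and 1360 counts and a ratio of 1.62; with its copy RPS28P7 added it was 1.69. All 30 measured proteasome genes had narrow spread, and their ratios ran from -0.19 to 0.25 on the log2 scale. Of 73 nuclear respiratory chain genes 52 were above PBS, as were 4579 of all 8196 genes. COX8A was the 1 higher gene of that list (701, 499 and 348 counts, ratio 1.70, 1.51 to 1.93).

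Mitochondrially encoded mRNAs lay on the other side, with 12 of 13 below PBS and a median of -0.19. MT-ND1 had 36538, 40765 and 55823 counts (ratio 0.685), MT-ND5 a ratio of 0.690 and MT-ND6 of 0.701. MT-ND4L was the exception, with 23181, 24785 and 18983 counts and a log2 ratio of 0.32. By FPKM, with 18104, 18302 and 17944, its log2 ratio was only 0.02. None of the 13 was past 1.5-fold. The list medians were -0.33 with A740003 and -0.08 with A438079, in the order of the mitochondrial shares of the libraries.

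The genes of ATP signalling were near PBS. Of 33 purinergic genes 10 were measured, none was past 1.5-fold, and all 10 had narrow spread. The ectonucleotidases ENPP3 (694, 621 and 517 counts, ratio 1.26) and ENTPD1 (398, 410 and 324, ratio 1.23) were above PBS, and the adenosine receptor ADORA2B (226, 198 and 260, ratio 0.805) was below it. The calcium list had 2 lower genes of 21, the inositol trisphosphate receptor ITPR3 (242, 317 and 623 counts, ratio 0.444) and the calcium sensor STIM1 (182, 222 and 324, ratio 0.617). ITPR1, another receptor of the ITPR3 family, had 461, 377 and 276 counts and a ratio of 1.499 (1.31 to 1.73), just under the size rule. By FPKM, with 4.50, 3.72 and 4.24, the pooled log2 ratio of ITPR1 was -0.04 in place of 0.58, so its direction depended on the measure.

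Of 14 measured inflammasome and NF-κB genes 11 were below PBS, with a median of -0.15. CX3CL1, a membrane-bound chemokine, was the 1 lower gene (185, 192 and 328 counts, ratio 0.568, 0.489 to 0.661). CASP4, an inflammatory caspase, had a ratio of 0.793, and the chemokine CCL20 had 5885, 4677 and 6197 counts and a ratio of 0.841. Immediate early genes, lysosomal genes and nuclear non-coding RNAs had no gene past 1.5-fold.

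**Figure D4:**
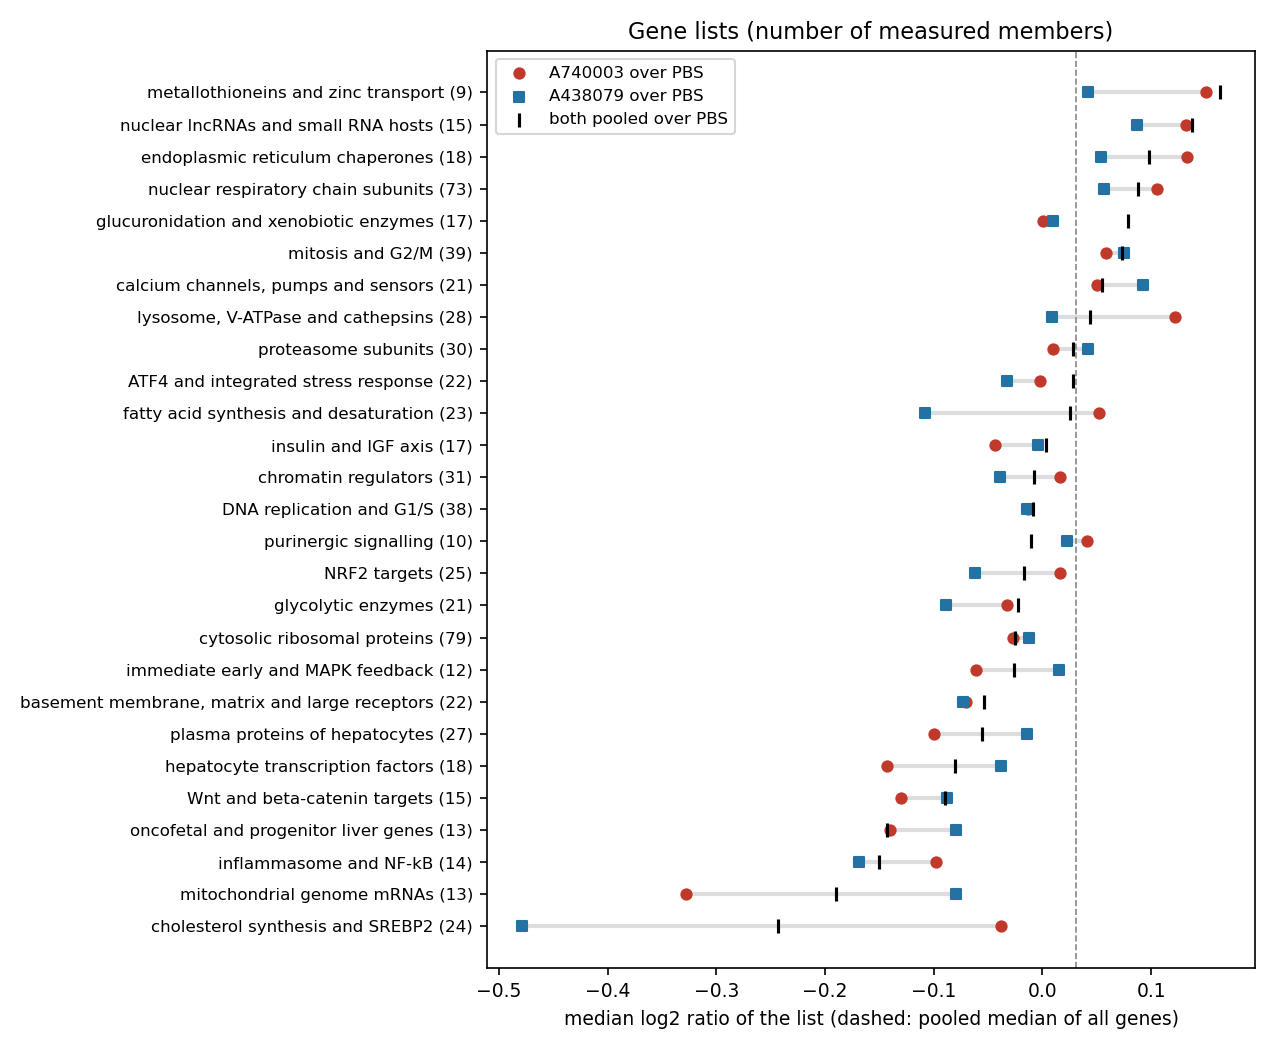
Median log2 ratio over PBS of each gene list, for A740003 (circles), A438079 (squares) and both pooled (bars), with the number of measured genes in parentheses. Cholesterol synthesis, at -0.24 pooled, has its A438079 median at -0.48 and its A740003 median at -0.04, the widest gap of the 27 lists.

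The lower genes shared a base composition that the ranking did not use. Their median transcript GC content was 58.9%, against 46.2% for all included genes, and their median length was 4305 against 3492 nucleotides. When the genes were divided into 10 groups of equal size by GC content, the median pooled log2 ratio went from 0.14 in the lowest group to -0.19 in the highest, and the share of lower genes from 0% to 19.8%. The same medians for A740003 over A438079 stayed between -0.02 and 0.00 in every group. By GC content alone, the trend was thus present against PBS with each antagonist and not between the antagonists. With length considered as well, the antagonists also differed. Removing the trends of both moved the log2 ratio of A740003 over A438079 from -0.50 to -0.34 in FASN (8565 nucleotides), although by FPKM A740003 was above A438079 there. In COX8A (507 nucleotides) it went from 0.45 to 0.36. Whether the trend against PBS belongs to the PBS library or to both antagonist libraries cannot be told apart.

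**Figure D5:**
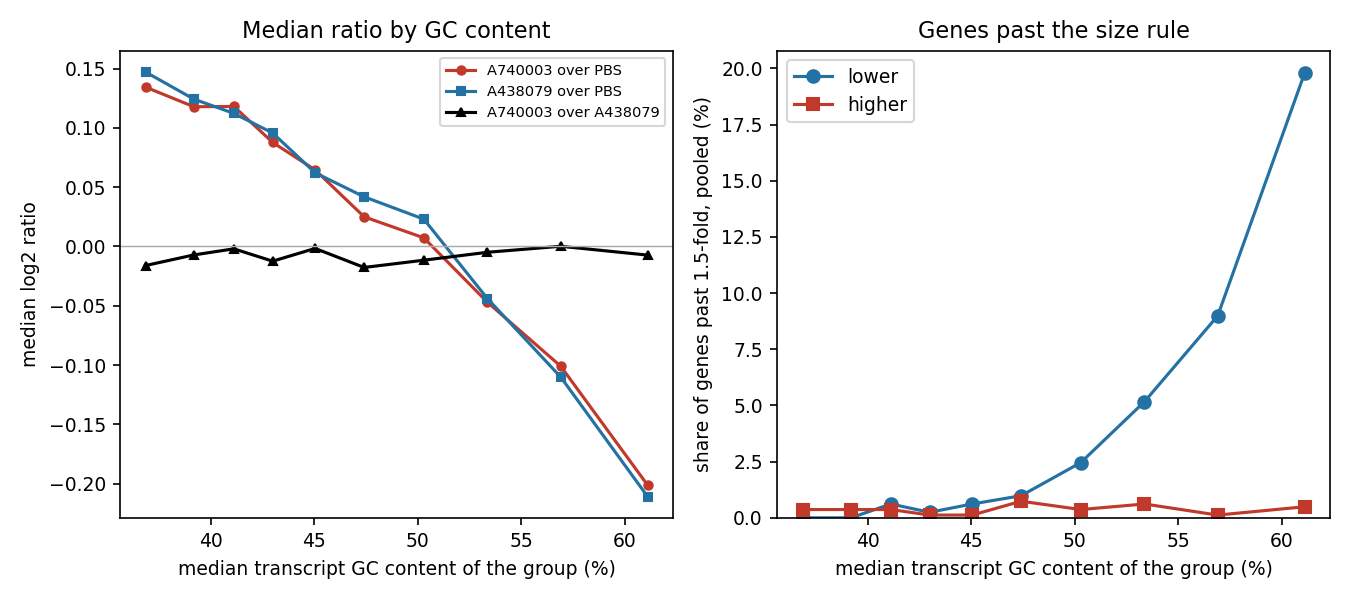
Left, median log2 ratio in 10 groups of genes of equal size by transcript GC content (%) for each antagonist over PBS and for A740003 over A438079. Right, percent of genes in each group at least 1.5-fold lower or higher after pooling. Both antagonist lines fall together and the line between the antagonists is flat, while the share of lower genes reaches 19.8% in the highest group.

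After the trends with GC content and length were removed, 197 of the 8124 genes with a known transcript were lower and 24 were higher, against 316 and 30 of the same genes before. Of the lower genes 177 were in both sets. Among narrow lower genes 119 remained by this measure, with 89 in both sets, which is 46.8% of the 190 before and 74.8% of the 119 after. POLR2A moved little, from -1.66 to -1.61 on the log2 scale, but its correction used a transcript of 2083 nucleotides. Longer genes of like GC content moved more. STK35 (6685 nucleotides) went from -1.15 to -0.86 and DLG5 (7415 nucleotides) from -1.28 to -0.93. Whether the transcript used for POLR2A is the one expressed here was not tested, and the small move of POLR2A depends on it. The authors' FPKM values, which scale for length, imply a longer transcript than 2083 nucleotides. With PBS, POLR2A had 441 counts and 3.73 FPKM, and STK35 had 524 counts and 4.37 FPKM. RNF187, with 3017 nucleotides, had 404 counts and 7.16 FPKM. The small move may therefore rest on too short a length. FASN went from -2.71 to -2.15, FGFR4 from -1.15 to -0.80, SREBF2 from -1.16 to -0.76, DAB2IP from -1.32 to -0.77 and MYO1C from -1.10 to -0.65. AKT2 (from -0.70 to -0.28), PFKL (from -0.63 to -0.29), CEBPA (from -0.68 to -0.37), FADS2 (from -0.82 to -0.48) and E2F1 (from -0.74 to -0.45) ended short of 1.5-fold. So did PLK1 (-0.54), STIM1 (-0.51), IGFBP4 (-0.49), ABCC3 (-0.30) and, just, ARHGEF40 (-0.58). Of the chromatin regulators named above EHMT1 (-0.34), KDM5C (-0.49), HDAC5 (-0.12) and HDAC6 (-0.38) were also short of it, as were ERBB2 (-0.38), PLXNB1 (-0.23) and LAMB2 (-0.36) among the large receptors and matrix genes. Of the 8 higher narrow genes MYO9A (0.65), ZNF180 (0.64) and ROMO1 (0.66) stayed past it, and VPS13D (0.49), CEP152 (0.42), TSPYL4 (0.55) and CLOCK (0.40) did not. RGPD5 (0.55) and ERO1B (0.50) did not either.

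The lower genes were also unevenly spread over chromosomes and expression levels. On chromosome 19, whose included genes had a median GC content of 57.8%, 8.94% of 369 genes were lower. On chromosome 13, with a median of 41.6%, none of 156 genes was lower. By mean CPM of the libraries, PBS included, the share of lower genes was 10.6% at 10 to 20 CPM, 4.14% at 20 to 50, 0.774% at 50 to 200 and 0.114% above 200. At the limit of inclusion, RERE (9.99 CPM, ratio 0.399) and SHB (9.997 CPM, ratio 0.533) stood just outside, and FANCB (10.001 CPM, ratio 1.27) and UBE2L6 (10.01 CPM, ratio 0.825) just inside.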

How the data were processed

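Total RNA of 3 HepG2 cultures (A740003, A438079, PBS) was made into mRNA libraries, per the labels' protocols. The authors deposited expected counts per gene, estimates that need not be whole, and FPKM values per gene, scaled by the authors for length and library size. The submitters' processing notes name GRCm38, a mouse build, although the rows carry human identifiers. The aligner, counting tool, annotation and strand setting were not given in the sources used, which leaves overlapping and antisense genes uncertain. Library totals were 19735540, 19606723 and 19375462 counts. The 116 rows without an Ensembl identifier stayed in the totals.

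Expected counts were rounded and scaled with TMM factors of 1.01, 0.989 and 1.00 (edgeR 4.0.16, R 4.3.3), with a pseudocount of 0.5 for log2 values. Genes averaging 10 CPM or more were kept, and ratios carry 95% conditional binomial intervals (scipy 1.17.1). Counts are called whole within 0.005. The calculation was tested on simulated counts with known changes. No p-value was computed. Transcript GC content and length came from GENCODE 29 (8124 genes, 99.1%) and promoters from RefSeq GRCh38.p14 (6705 genes matched by symbol). Their trends were removed with running medians over 201 neighbouring genes.

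The genes named are the 12 highest and 12 lowest with narrow spread and whole counts, the 4 of each with fractional counts, the 5 of each with wide spread and whole counts, where they passed the size rule, up to 4 per list with the largest pooled log2 ratio, P2RX7 and P2RX4. The genes, rules and lists were chosen with earlier results of these data known. Alternatives covered scaling (total counts, DESeq2 1.42.0, upper quartile), expression minimum, pooling, fold size, FPKM, whole counts, gene type, GC content and rounding. Some genes counted in these sets are not reported singly here.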

Additional observations from a re-analysis of the deposited data

How the results depend on the processing

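The counts of lower, higher, narrow lower, narrow higher, wide lower and wide higher genes were 321, 31, 192, 15, 32 and 9. No named gene that passed the size rule changed direction under any alternative, and total-count scaling, DESeq2 size factors, geometric pooling and unrounded counts kept all 6 counts within 1.5 times. Upper quartile scaling gave 58 higher and 38 narrow higher genes. With other expression minimums, in the same order, the counts at 1 CPM were 1183, 266, 577, 111, 303 and 78, at 5 CPM 551, 70, 319, 37, 73 and 14, and at 20 CPM 136, 20, 94, 8, 7 and 8. A 2-fold limit gave 83 lower, 8 higher, 31 narrow lower, 1 narrow higher and 18 wide lower genes. Counting every gene whose interval lay beyond the narrow limit around PBS gave 161 higher, 303 narrow lower and 135 narrow higher genes, and a narrow limit of 1.5-fold gave 289 narrow lower genes. FPKM gave 83 higher, 54 narrow higher and 19 wide higher genes with a pseudocount of 0.1, and 52, 29 and 17 with a pseudocount of 1. Whole counts alone left 188 lower, 106 narrow lower, 12 higher, 8 narrow higher and 1 wide higher gene, and protein-coding genes alone left 4 wide higher genes, in each case because fewer genes were counted. With the GC content and length trends removed there were 197 lower, 119 narrow lower and 20 wide lower genes. Leaving out 1 antagonist in turn gave 290 to 403 lower, 21 to 84 higher, 184 to 235 narrow lower, 13 to 46 narrow higher, 28 to 40 wide lower and 7 to 11 wide higher genes, the larger counts without A438079, that is with A740003 alone. Except where stated, the cause was not tested. Of 66 named genes past the size rule, 7 were within 1.5-fold by FPKM with a pseudocount of 0.1, among them ROMO1, VPS13D, MYO9A, ABCC3, PNPLA3 and TBC1D16. The FPKM log2 ratios of single genes given above use the same pseudocount. With a pseudocount of 1 further genes fell short, among them ZNF180 (0.51), CEP152 (0.54) and TSPYL4 (0.53), while CLOCK (0.64) did not. ITPR1, which did not pass the size rule, was the 1 named gene whose sign changed, to -0.04 by FPKM.

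Medians of 15 of the 27 lists, chromatin regulators, fatty acid synthesis and purinergic signalling among them, changed sign under at least 1 alternative, so medians near 0 have no direction. No paired analysis was possible because each treatment had 1 library. Depth also limits the lower genes. At 10 CPM a library gives 194 to 199 counts, but the minimum applied to the mean of the libraries, PBS included. POLR2A had 6.68, 7.69 and 22.7 CPM with A740003, A438079 and PBS, FASN 6.03, 8.51 and 47.8, and PRRC2A 3.77, 7.43 and 25.4. Such genes were below 10 CPM with both antagonists, whereas others, such as FGFR4 (21.8, 21.8 and 48.3), were not. The spread of genes such as POLR2A is known only to within its counting interval.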

Other observations

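Outside the naming rule, and picked after their values were seen, further genes with wide spread were lower with A740003 than with A438079 and lower with both than with PBS. FLNA, the actin crosslinker filamin A, had 427, 777 and 1812 counts with A740003, A438079 and PBS, a pooled ratio of 0.330 (0.305 to 0.353). FOXQ1, a forkhead transcription factor, had 113, 263 and 553 counts and a ratio of 0.338, with the A740003 level at 0.418 of the A438079 level. The guidance genes EPHB4 (112, 171 and 381 counts, ratio 0.368) and SEMA6B (160, 300 and 614, ratio 0.372), the nonmuscle myosin MYH14 (123, 205 and 408, ratio 0.399) and the keratin KRT23 (308, 485 and 698, ratio 0.563) followed the same order.

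Rows without a symbol near the top of the ranking were also picked after their values were seen. A processed pseudogene among them had 1121, 3069 and 581 counts and a pooled ratio of 3.59 (3.27 to 3.89). That ratio came mostly from A438079 (5.29, against 1.88 for A740003). Below it, 3 rows without a symbol, annotated as lincRNA on chromosome 21, held identical values of 3261, 8482 and 2173 counts. Which RNA these rows and the pseudogene row count was not tested. The pooled ratio of the 3 rows, 2.69 (2.55 to 2.80), also came mostly from A438079 (3.91, against 1.46 for A740003). These 3 rows are counted among the 31 higher genes, although identical values cannot be 3 separate measurements. ZBED1 likewise appears in a pair of rows with the same 172, 267 and 368 counts.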
